A study of Drosophila melanogaster with 2 samples.

Results

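The fork head genes fkh, bin, croc, slp1, slp2, jumu, CHES-1-like, foxo and FoxP were examined for binding of tup (tailup), a LIM-homeodomain transcription factor of the Islet type. They are 9 of 18277 annotated genes and were chosen by family name, with earlier results of the same peak lists known. A peak was selected on the position of its summit, which had to lie between 5 kb upstream of a member gene and the end of that gene, taken on the gene's strand. Binding had been profiled by chromatin immunoprecipitation with sequencing (ChIP-seq) through an anti-GFP antibody, in whole Drosophila melanogaster embryos of 0 to 24 hours. The line, Tup-GFP, carried tup with GFP at its C-terminal end, and males and females were pooled. The data formed 1 group of 2 biological replicates, with no group of another genotype or treatment. What drives the fusion gene is not given in the sources used here, and the control experiment was not analysed here. A whole-embryo list does not tell in which cells a site was occupied.

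Fork head proteins bind DNA through a winged-helix domain and are named after fkh, whose loss turns the terminal regions of the embryo into head-like structures. In the fly embryo, fkh, the FoxA gene, acts in the salivary gland and gut, bin, the FoxF gene, in the visceral mesoderm, and the FoxG pair slp1 and slp2 in segmentation. The gene croc, of the FoxC group, acts in head development, jumu and CHES-1-like act in heart precursor divisions, foxo is the transcriptional effector of insulin signalling, and FoxP acts in neurons. The protein tup is itself known for roles in motor neurons, the heart and the amnioserosa.

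The authors' optimal list, thresholded by irreproducible discovery rate, a measure of reproducibility, held 2241 peaks. Of these, 14 had summits in the fork head regions, in 6 of the 9 genes. The pooled candidate list of 30000 peaks, called on both replicates together, placed 57 summits there, and each replicate's own list of 30000 also placed 57. Peak height is given as the authors' signal value, a number without a physical unit whose scale differs between lists. Its median was 102.3 in the optimal list, 27.3 in the pooled list, 20.8 in replicate 1 and 11.03 in replicate 2. The optimal peaks were the 2241 pooled candidates of highest signal, with a lowest value of 68.7, so entry to that list is a threshold on pooled signal. Read totals are not in the lists, so the depth is unknown.

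The sequences below are those of the peaks on which the description turns: the strongest site of fkh, of slp2 and of foxo, and 4 sites of the CHES-1-like cluster. Each is 101 bp centred on the summit, on the plus strand of the genome (dm6, from the RefSeq copy of BDGP6). Capitals mark a match, on either strand, to the longer motifs searched, while the short TAAT and the E box are left in lower case. They are GGTCACAC, the letters bound by the promoter factor M1BP, in slp2, fork head letters (TATTTAC or TGTTTGC) and homeodomain letters (TAATTG or CTAATG, the latter as CATTAG in foxo).
fkh promoter, chr3R:28585452-28585552: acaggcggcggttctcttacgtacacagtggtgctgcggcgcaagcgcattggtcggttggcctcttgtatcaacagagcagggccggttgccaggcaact
slp2 upstream, chr2L:3832460-3832560: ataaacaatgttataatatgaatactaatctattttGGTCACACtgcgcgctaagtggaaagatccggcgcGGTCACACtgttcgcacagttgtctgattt
foxo upstream, chr3R:14053629-14053729: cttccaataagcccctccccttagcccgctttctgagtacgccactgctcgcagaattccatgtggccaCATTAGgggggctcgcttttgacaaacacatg
CHES-1-like, nearest to transcript RA, chrX:7697027-7697127: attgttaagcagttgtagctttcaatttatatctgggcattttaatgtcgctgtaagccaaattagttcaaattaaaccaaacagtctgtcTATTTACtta
CHES-1-like, intron, 2 fork head matches, chrX:7698356-7698456: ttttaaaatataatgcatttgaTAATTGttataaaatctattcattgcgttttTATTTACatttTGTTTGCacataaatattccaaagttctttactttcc
CHES-1-like, intron, CTAATG, chrX:7700378-7700478: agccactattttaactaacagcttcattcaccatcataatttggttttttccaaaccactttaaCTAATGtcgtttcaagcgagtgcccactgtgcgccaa
CHES-1-like, intron, highest pooled signal, chrX:7706941-7707041: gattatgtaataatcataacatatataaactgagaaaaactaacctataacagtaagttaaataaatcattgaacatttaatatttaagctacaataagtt

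The gene fkh (FBgn0000659, chr3R:28580976-28585264, minus strand) had the strongest peak of the set. It lay at chr3R:28585389-28585586, 238 bp upstream of the start of transcript fkh-RD, and its pooled signal of 331 ranked 92 of 30000. Its signal was 149 in replicate 1 (rank 207) and 174 in replicate 2 (rank 49). The peak was thus high in both replicates, and it was GC-rich, at 60.4% against a median of 33.7% over all optimal windows. A second optimal peak of fkh, 1818 bp upstream, lay in a non-coding exon of lncRNA:CR43126, and its pooled signal was 69.8. Its replicate signals were 49.3 (rank 1996) and 20.9 (rank 3622), so it stood among the 2241 strongest peaks of replicate 1 only. The other 2 candidates in the fkh region were weak, at 25.0 and 26.1. The next optimal peak upstream of fkh lay 5434 bp from its start, just outside the region, with a signal of 75.1.

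The FoxF gene bin (FBgn0045759, chr3L:6990622-6994447, plus strand) had 1 optimal peak, at chr3L:6989043-6989426, intergenic and 1387 bp upstream. Its pooled signal of 69.6, rank 2189, was just above the lowest value in the optimal list. The replicate signals were 41.4 (rank 2837) and 26.3 (rank 2366), so the peak was not among the 2241 strongest of either replicate, where the lowest values were 46.8 and 27.07. Of the pooled candidates that missed the optimal list, the ones nearest to it were in jumu (65.3), CHES-1-like (59.3) and foxo (56.7), while the optimal peaks nearest to its edge were those of bin (69.6) and fkh (69.8) and the weaker peak of foxo (73.9).

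The neighbours slp1 (FBgn0003430, chr2L:3825675-3827099) and slp2 (FBgn0004567, chr2L:3836840-3839185), both on the plus strand, differed in what their regions held. The only optimal peak lay between them, at chr2L:3832383-3832606, 5411 bp beyond the end of slp1 and 4330 bp upstream of slp2, and it counts for slp2 under the 5 kb rule. Its pooled signal was 279 (rank 132), with 150.3 in replicate 1 (rank 203) and 130.05 in replicate 2 (rank 93). No pooled candidate and no replicate 1 candidate fell in the slp1 region. Replicate 2 listed 3 there, with signals of 12.8, 10.9 and 8.44, against a list median of 11.03. The slp2 site held GGTCACAC in 2 copies, 14 bp to the left and 21 bp to the right of the summit. Such letters occurred in 11 of the 2241 optimal windows (0.491%), 9 of them within 500 bp of a transcription start site (TSS), and in 0.407% of the pooled windows. The slp2 window was the only optimal window with 2 copies (1 of 2241, 0.0446%), a feature looked for after its sequence had been seen.

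The FoxC gene croc (FBgn0014143, chr3L:21474133-21476479, minus strand) and FoxP (FBgn0262477, chr3R:9726020-9730872, minus strand) had no optimal peak. The strongest pooled candidate of croc had a signal of 25.0, and the highest replicate signals in its region were 23.7 and 9.26. For FoxP the corresponding values were 23.6 in the pooled list, 23.7 in replicate 1 and 10.9 in replicate 2. The pooled candidate of 23.6 lay 2504 bp upstream of FoxP and 126 bp from the start of another gene, alphaTub85E. The pooled values of croc and FoxP were below the median of the pooled list (27.3). None of the 6 pooled candidates in their regions had a candidate of both replicates within 100 bp. A site missing from the optimal list had a pooled signal under its threshold, which does not show that tup was absent there.

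The gene jumu (FBgn0015396, chr3R:10350182-10361612, plus strand) had 1 optimal peak, at chr3R:10356758-10357141 in intron 1, 6768 bp from its start. The pooled signal was 114 (rank 935), and the signal was 57.6 in replicate 1 (rank 1462) and 54.8 in replicate 2 (rank 652). Among its 5 other pooled candidates, 2 more in intron 1 were among the 2241 strongest of replicate 2, with signals of 38.7 (rank 1224) and 35.2 (rank 1443). The first of these had a pooled signal of 65.3, and replicate 1 gave it 25.9 (rank 8581). For the second, replicate 1 listed no summit within 100 bp. A further candidate in intron 1, chr3R:10353934-10354317, went the other way, with a signal of 32.1 in replicate 1 (rank 4959) and no replicate 2 summit nearer than 2617 bp.

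CHES-1-like (FBgn0029504, chrX:7682338-7709385, minus strand), a FoxN gene, held 7 of the 14 optimal summits. All 7 lay in the 5' part of the gene, within 12147 bp, and neighbouring summits were 1321 to 3910 bp apart with a median of 1677 bp. Read from the gene start inward, their pooled signals were 104, 178, 124, 91.6, 159, 138 and 160.3. The cluster thus had no single dominant peak, and its signals lay within 91.6 to 178. The gene has 4 annotated transcript starts, and 2 of its optimal summits were promoter summits, within 500 bp of a start. The nearest optimal summit was 161 bp downstream of the RC start, 696 bp upstream of the RB start and 373 bp upstream of the RA start. For the fourth start, that of RD, the nearest optimal summit was 2159 bp away. The summits other than those nearest to the RC, RB and RA starts, 4 in all, lay in intron 1 of longer transcripts.

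The replicates did not rank the CHES-1-like peaks alike. In the same order from the gene start, the signals of the summits within 100 bp in replicate 1 were 66.0, 166, 37.2, 56.8, 69.1, 90.6 and 84.0. In replicate 2 they were 40.7, 22.5 and 24.5, then no summit within 100 bp, then 88.7, 45.7 and 63.7. The peak of highest pooled signal (178, chrX:7706951-7707071) had a replicate 1 rank of 158 and a replicate 2 rank of 3130. Its ratio of replicate 1 to replicate 2 signal was 7.39, and 21 of the 2025 optimal peaks with a summit in both replicates (1.04%) had one at least as high. Each summit was within 100 bp of the pooled one, but the 2 lay 136 bp apart, farther than at the other 11 peaks with both. Replicate 1 listed another overlapping candidate of signal 29.9, 64 bp from the replicate 2 summit and 122 bp from the pooled one, and against it the ratio is 1.33. The peak was also narrow, at 121 bp against a median width of 384 bp, and its window had 19.8% GC. By contrast, the peak at chrX:7700236-7700619 was the strongest of the gene in replicate 2 (rank 228) and the fifth of 7 optimal sites from the gene start. At the peak of chrX:7705467-7705850 replicate 1 also listed an overlapping candidate of signal 104.02, 110 bp from the pooled summit, and with it the ratio there is 4.25 in place of 1.52. At the peak without a replicate 2 summit, chrX:7701557-7701940, replicate 2 had one of signal 23.4 at 110 bp. The region held 7 summits of the strongest 2241 peaks of replicate 1 and 5 of those of replicate 2. Of these 5, 4 were at optimal peaks and the other, with a signal of 31.3, was not.

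**Figure D1:**
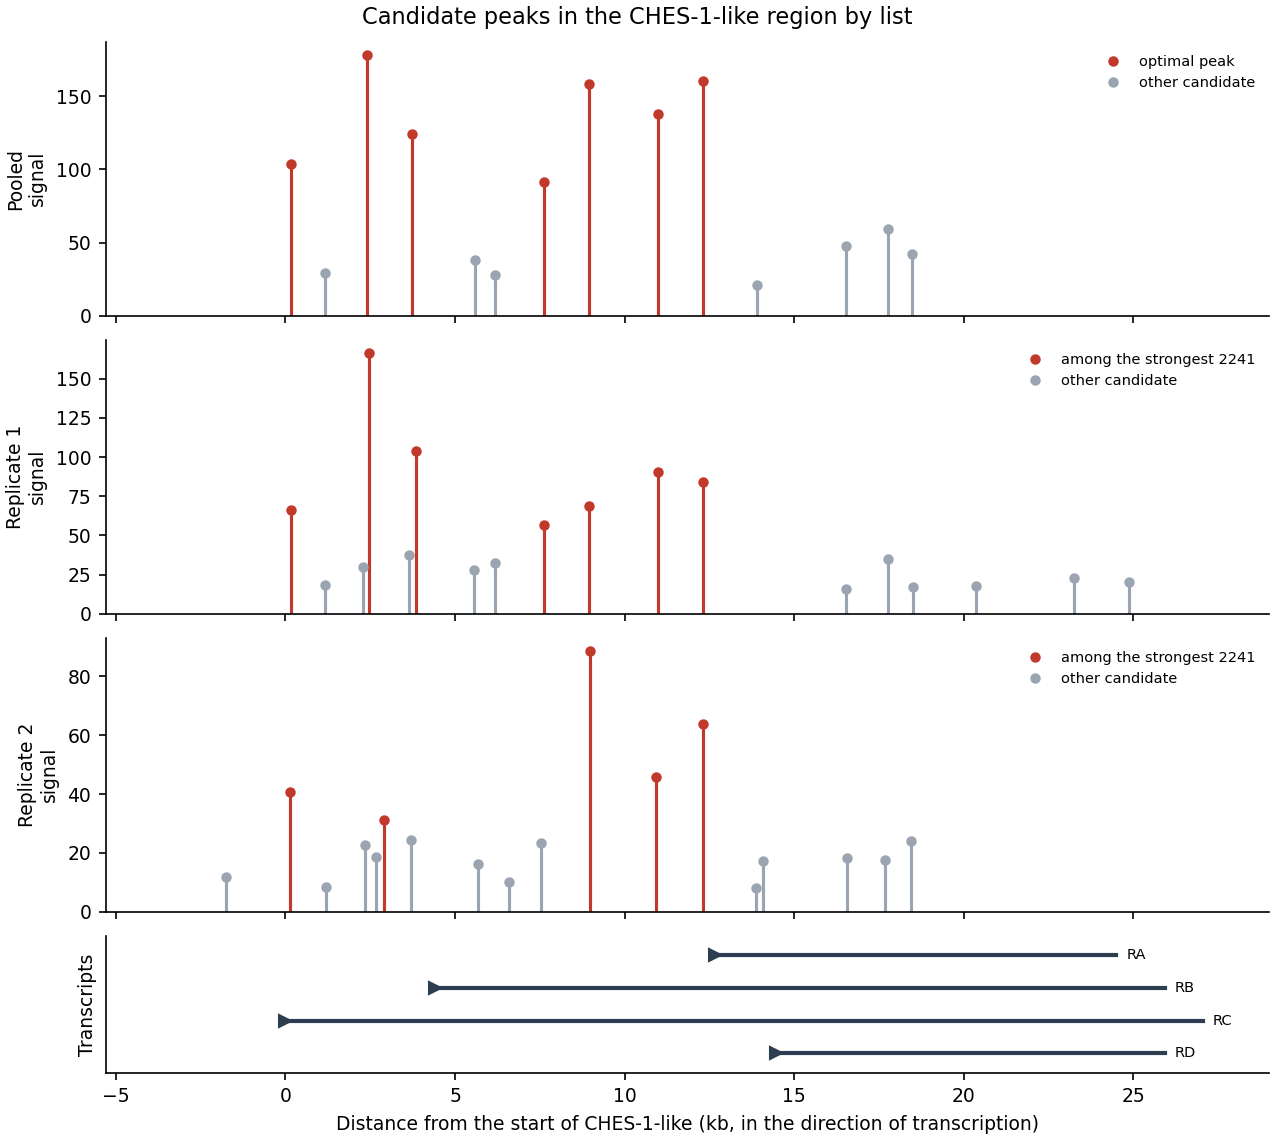
Signal of the candidate summits in the CHES-1-like region (vertical axis) against distance from the gene start in kb (horizontal axis), for the pooled list and each replicate, with the transcripts drawn to scale. The 7 optimal summits lie within 12147 bp at the 5' end. The peak of highest pooled signal ranks 158 in replicate 1 (signal 166) and 3130 in replicate 2 (signal 22.5), with those summits 136 bp apart.

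Such a density of optimal summits was uncommon. Of the 2241 optimal summits, 3 (0.134%) started a window of 12147 bp that held 7 or more, namely those in msn, Raf and CHES-1-like, and the median window held 1. The CHES-1-like region carried 2.18 optimal summits per 10 kb, against a mean of 0.259 over the 3492 protein-coding genes with regions of 10 kb or more, and 27 of these (0.773%) were at or above that density. Among the 401 protein-coding genes with regions within 20% of its length, 39.2% had any optimal summit and 1 (0.249%) had as many. The window length and the threshold of 7 were the span and count of CHES-1-like itself, so its own window qualifies by construction. The count was also known when the gene was chosen, so these values place it and test nothing.

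The gene foxo (FBgn0038197, chr3R:14056945-14087978, plus strand) had both of its optimal peaks upstream, in intergenic sequence. The stronger, at chr3R:14053505-14053721, 3266 bp upstream, had a pooled signal of 202 (rank 290), with 152 in replicate 1 (rank 195) and 48.3 in replicate 2 (rank 826). Its ratio between replicates, 3.14, was matched or passed by 284 of 2025 optimal peaks (14.0%). The weaker, at chr3R:14052195-14052578, 4558 bp upstream, had a pooled signal of 73.9 and went the other way. Replicate 2 gave it 48.4 (rank 822), whereas the nearest summit of replicate 1 was 149 bp off, with a signal of 17.0 (rank 23918). Inside the gene there was no optimal peak. The foxo region held 21 other pooled candidates, with signals from 20.7 to 56.7, of which 14 were in introns and 3 had candidates of both replicates within 100 bp. Its 23 pooled candidates exceeded the median of 8 over the 360 protein-coding genes with regions within 20% of its length.

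**Figure D2:**
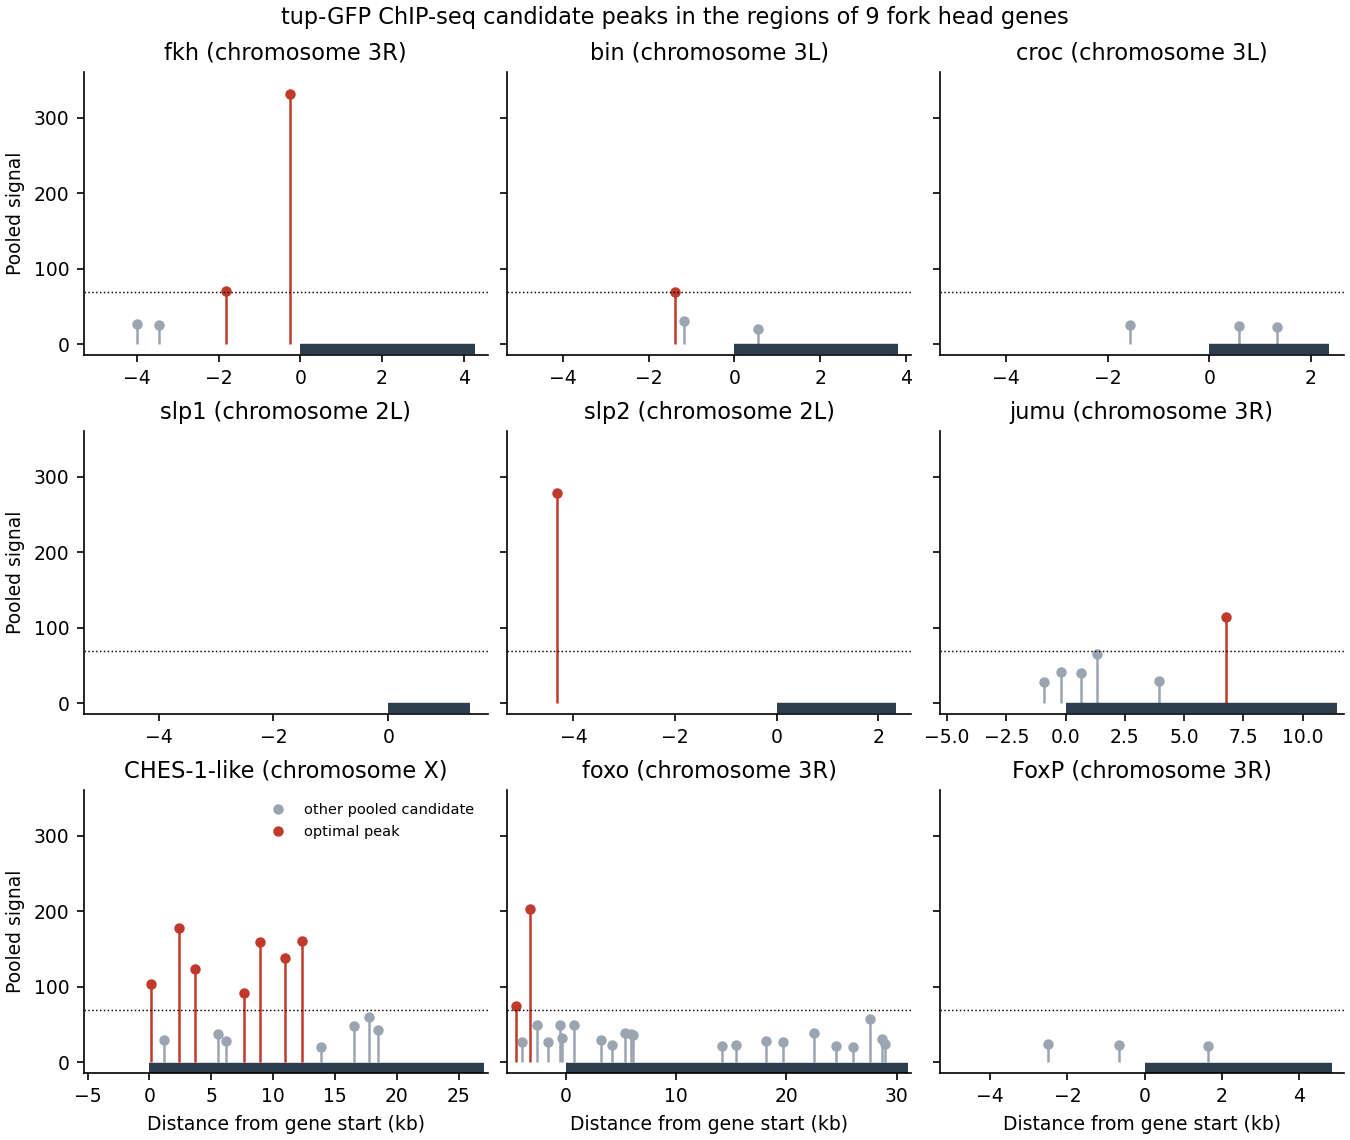
Pooled signal of every pooled candidate summit (vertical axis) against distance from the gene start in kb (horizontal axis, negative values upstream) for the 9 genes, with the gene as a dark bar and the lowest optimal signal of 68.7 as a dotted line. Optimal peaks are highest at the fkh promoter (331) and upstream of slp2 (279), cluster in CHES-1-like and are missing from croc, slp1 and FoxP.

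Set beside all genes, 6 of the 9 fork head genes had an optimal summit, where 20.6% of all genes and 22.8% of protein-coding genes did. With the 2241 strongest peaks of replicate 1 alone, 5 of 9 genes had a summit (background 20.4%), and with those of replicate 2 alone 5 of 9 did (background 20.1%). In both cases bin was the gene that no longer counted. A pooled candidate was found in 8 of 9 genes, close to the 80.1% of all genes. At least 2 optimal summits were found in fkh, CHES-1-like and foxo, against 4.75% of protein-coding genes, and at least 7 in CHES-1-like, against 0.0573%. The members were chosen with these peaks known, so nothing about the family is read from the counts. Region length varied from 6425 bp in slp1 to 36034 bp in foxo. Among protein-coding genes with regions within 20% of the same length, an optimal summit was found in 25.5% for fkh, 24.6% for bin, 19.9% for slp2, 33.9% for jumu and 37.8% for foxo. For the genes without one it was 19.9% for croc, 16.9% for slp1 and 25.8% for FoxP.

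**Figure D3:**
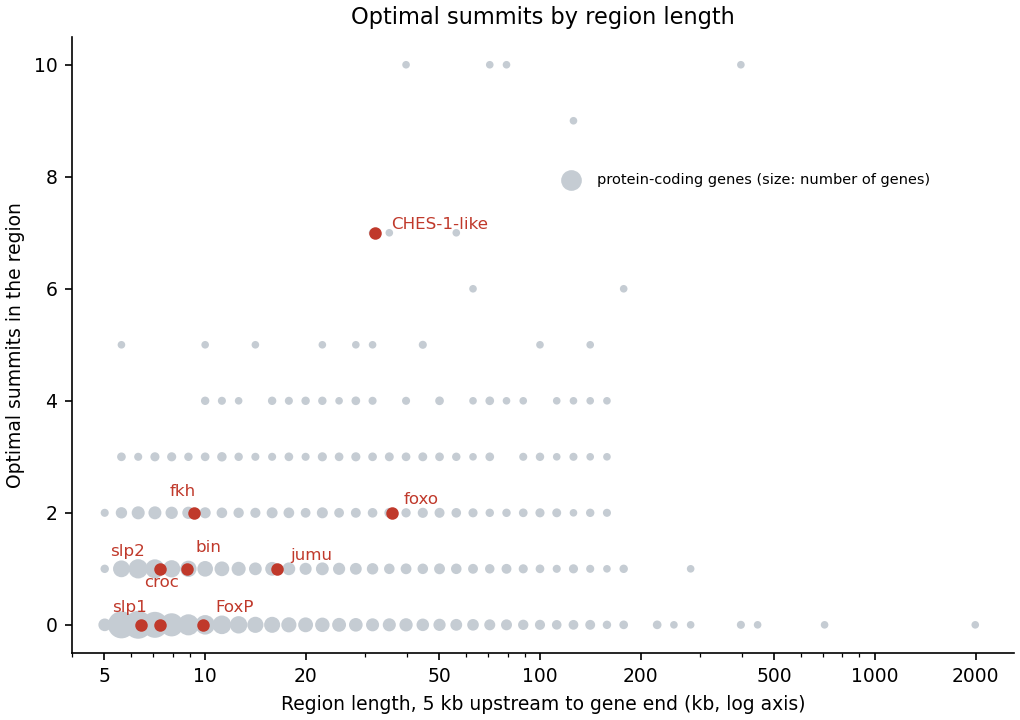
Number of optimal summits in the region of a gene (vertical axis) against region length in kb (horizontal log axis), for protein-coding genes in length bins (grey, size by number of genes) and the 9 fork head genes (red). CHES-1-like, at 7 summits, stands above the fork head genes and most genes of like length, while croc, slp1 and FoxP lie at 0.

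Between the replicates, 12 of the 14 optimal peaks (85.7%, Wilson 95% interval 60.1 to 96.0) had a candidate summit of both within 100 bp, against 2025 of 2241 (90.4%). Both replicates placed 8 of the 14 (57.1%) among their 2241 strongest peaks, against 55.7% of all optimal peaks. The ratio of replicate 1 to replicate 2 signal ran from 0.779 to 7.39 over the 12, with a median of 1.55, against a median of 1.65 over the 2025. The share over all optimal peaks lay inside the interval of the 14. The intervals cover counting error only, and 7 of the 14 peaks share a gene.

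**Figure D4:**
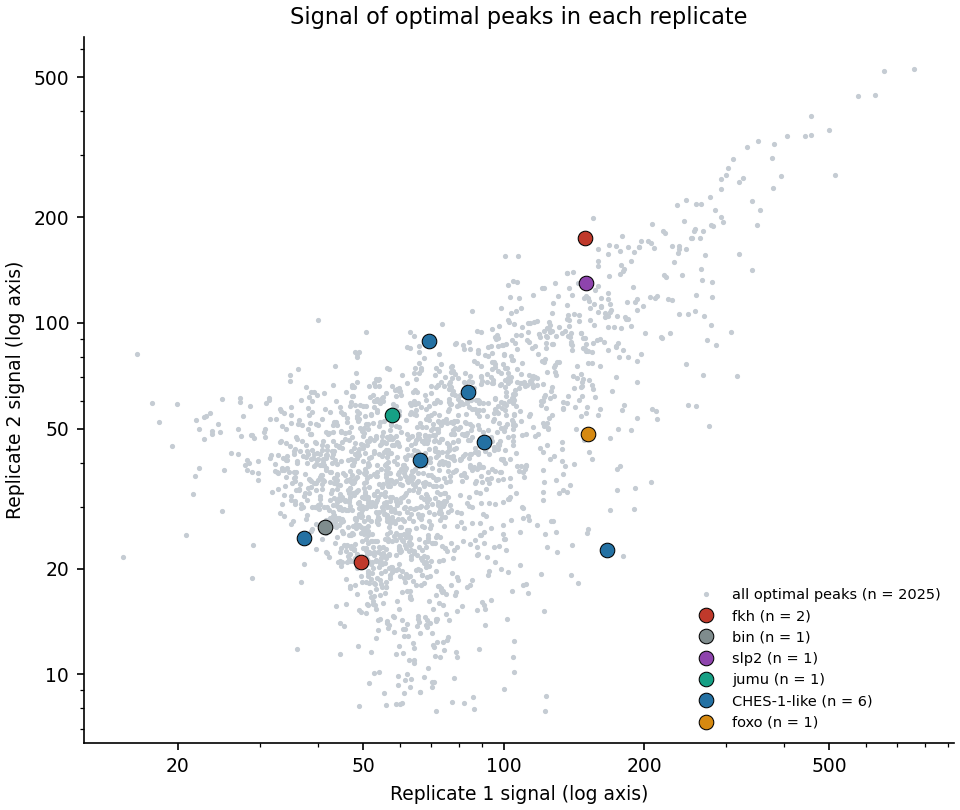
Signal in replicate 2 (vertical log axis) against signal in replicate 1 (horizontal log axis) of the optimal peaks with a summit within 100 bp in both replicates, all in grey and the fork head peaks in colour. The fkh promoter and slp2 peaks are high in both, and the CHES-1-like peak with a ratio of 7.39 lies at the lower right edge.

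By position, 3 of the 14 summits (21.4%, interval 7.57 to 47.6) were within 500 bp of an annotated TSS, against 1237 of 2241 (55.2%). These 3 were the fkh promoter peak and the CHES-1-like peaks nearest to the RC and RA starts. Of the rest, 6 were intronic (5 of them in CHES-1-like), 4 intergenic and 1 in a non-coding exon, and none was in a coding exon. The median distance to a TSS was 1544.5 bp, against 351 bp over all optimal peaks. Signal above the optimal median was found in 10 of 14 (71.4%, interval 45.4 to 88.3), 6 of them in CHES-1-like. Over all optimal peaks it was found in 1120 of 2241, a share inside that interval. The median signal was 131 against 102.3. The 43 other pooled candidates had signals from 19.99 to 65.3, and 6 of them were in coding exons, in the regions of bin, croc, foxo and FoxP. Of the 2 in the FoxP region, 1 lay 675 bp upstream of FoxP, in a coding exon of another gene. None of the 14 optimal summits lay on an annotated transposable element, and 1 of the 43 others did, in CHES-1-like. The same share over all peaks is not given here, so nothing is read from these counts.

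The motifs were counted on both strands in the 101 bp windows. Fork head letters (TGTTTAC or TGTTTGC or TATTTAC) were in 2 of 14 windows (14.3%), both in CHES-1-like, against 14.2% of all optimal and 9.17% of all pooled windows. The homeodomain core TAAT was in 12 of 14 (85.7%), against 77.1% and 60.3%. One of its longer forms (TAATTG or TAATGG or CTAATG) was in 4 of 14 (28.6%), against 17.9% and 16.2%; these forms contain TAAT, so the counts overlap. They lay in both foxo peaks and in 2 CHES-1-like peaks. The fkh promoter window and the jumu window were the 2 without TAAT. The E box CANNTG was in 8 of 14 (57.1%), against 36.7% and 41.4%. The BEAF-32 letters CGATA were in none of the 14, against 15.3% of optimal windows, and GAGAG was in none, against 10.1%. A match is a string of letters and not a shown binding site.

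Of the 9 other fork head genes examined, FoxK and FoxL1 had an optimal summit (22.2%, against 20.6% of all genes). The FoxK signal was 85.2, with 27.2 in replicate 1 and 59.7 in replicate 2. The FoxL1 signal was 68.97, near the lower edge of the optimal list, with 43.4 and 23.6. Among the 2241 strongest peaks of a replicate, 1 of these 9 genes had a summit in replicate 2 and none in replicate 1. In insulin and foxo signalling, 8 of 23 genes (34.8%) had an optimal summit, against 20.6% of all genes. Of 24 names listed, Tor matched no single gene and was left out. Among the 2241 strongest peaks of a replicate, 5 of the 23 genes had a summit in replicate 1 (background 20.4%) and 8 in replicate 2 (background 20.1%). The strongest optimal peak in the region of Sesn had a signal of 378, and its summit was 251 bp from the start of another gene, CG46429. The next were at InR, the insulin receptor gene (326), and Pi3K21B (223), which encodes the regulatory subunit of phosphoinositide 3-kinase. Thor, the 4E-BP gene and a known foxo target, had 120. The peak in the region of the kinase gene Akt (95.1) was nearer to the start of Mhcl, at 994 bp. S6k (73.0), srl (72.8) and Pi3K92E (72.6) were near the lower edge, and the srl peak lay 6 bp from the start of CG1074. None of the insulin-like peptide genes Ilp1 to Ilp8 had one. Their regions were short, from 5549 to 8166 bp, and no share over genes of like length was computed for them. The regions of the neighbours Ilp1 and Ilp2 had the same highest pooled signal (27.7), so these genes are not separate observations.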

How the data were processed

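The deposited peak lists were in the dm6 and dm3 builds, and only the dm6 lists were used here. Per the file lists that came with the samples, candidates were called for each replicate and for both pooled, and the authors derived the optimal list by irreproducible discovery rate. What was used as caller and aligner, with which versions and threshold, is not given in the sources used here. Each peak carries 3 values used here. These are, in the authors' lists, a signal value, a −log10 q value and a summit offset, which the authors deposited as bases from the peak start and which was added to the start for the summit position. The −log10 q value, as deposited, reached a ceiling shared by 784 pooled peaks, so peaks were ranked by signal. Signal was compared within a list only, and its ratio between replicates at matched summits is read only beside the same ratio over all optimal peaks. The ratios of 1.33 and 4.25, with another overlapping candidate at CHES-1-like peaks, have no such background here.

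Genes and transcript starts came from Ensembl release 115 (BDGP6.54), and coordinates are counted from 1. A summit was a promoter summit within 500 bp of a transcript start, and summits of different lists were matched within 100 bp. Each replicate was also taken alone through its 2241 strongest peaks. Motifs were counted within 50 bp of the summit. No test was made, since there is 1 group, and the members and lists were chosen with earlier results of these data known. The text names all members, each of their optimal peaks or, failing that, the strongest candidate, and list genes with an optimal summit. The placing of the 5 kb upstream region by strand and the reverse complement of a sequence were checked on made-up data, and the counting of peaks was not. Python 3.11.15, numpy 2.4.6, pandas 2.3.3, scipy 1.17.1 and matplotlib 3.10.9 were used. Depth is unknown, so precision cannot be given beyond counting intervals.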

Additional observations from a re-analysis of the deposited data

How the results depend on the processing

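Of 35 alternatives over 7 results, 29 stayed within 1.5 times the count, or within the interval of the share, and 6 did not. With 1 kb upstream in place of 5 kb, 3 of the 9 genes (fkh, jumu and CHES-1-like) and 9 of the 14 summits remained counted. With 10 kb there were 6 genes and 15 summits. The share of all genes is given here for the 5 kb rule only, so the counts at 1 kb and 10 kb have no background. The share of optimal peaks with a candidate of both replicates was 57.1% within 50 bp, 100% within 250 bp, 100% with any overlap of intervals and 100% for peaks above the median signal. From each replicate alone, 5 genes were counted, with 12 to 13 summits, of which CHES-1-like had 5 to 7. By nearest transcript start CHES-1-like had 6, because its peak of highest pooled signal (178) was nearest to the start of lncRNA:CR43287, at 784 bp. Fork head letters were in 8.33% of the windows without replicate 1, and in 28.6% with 100 bp on each side of the summit (24.1% of all optimal windows). Homeodomain forms were in 50% with 100 bp on each side (29.5% of all optimal windows). No paired analysis was possible because the data form 1 group. Read totals are unknown, which leaves the sampling error of each signal unknown, and with 14 peaks the shares have wide intervals.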

Other observations

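Genes that act with the members in their tissues were also read, by the same 5 kb rule. Of 6 visceral mesoderm genes, 4 had an optimal summit in their region, against 20.6% of all genes. The signals were 572 for Mef2, 111 for tin, 109.9 for Fas3 and 72.0 for jeb. Among the 2241 strongest peaks, 4 of the 6 had one of replicate 1 (background 20.4%) and 2 of the 6 one of replicate 2 (background 20.1%). The regions of Fas3 (78340 bp), Mef2 (50363 bp) and jeb (39147 bp) were long, and that of tin was 7994 bp. For these lists no share over genes of like length was computed. The summit of the Mef2 peak was 169 bp from the start of another gene, Pal1. Of 3 heart precursor genes, fz had one or more (199), and that summit was nearest to the start of lncRNA:CR45025. None of 4 salivary gland genes and none of 7 segmentation genes had one, against 20.6% of all genes.

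The protein-coding genes whose highest signals in the pooled, replicate 1 and replicate 2 lists were closest to those of CHES-1-like, out of 10348 genes, were CG43221, CG43645 and CG5131, at a distance of 0.15 on the log2 scale. All 3 take their values from the same peaks (193.5 pooled, 156.7 and 87.8), with 2 optimal summits each.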
